A study of Homo sapiens with 12 samples.

Results

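HEK293T cells, a human embryonic kidney line, were exposed to the clickable electrophilic purine (CEP) AHL-Pu-1 at 25 µM for 1 h, and their RNA was set against that of cells given the solvent DMSO. The comparison holds the 3 CEP and the 3 DMSO libraries, 6 of the 12 RNA-Seq libraries of the study, and its members were taken from the treatment named on each sample label. The other groups received 4-thiouridine (4SU) at 100 µM for 16 h, alone or with CEP. Their fold changes are used below to see whether a difference recurred in other libraries. All 12 libraries also entered the same fit, so the 4SU groups helped to set the gene filter, the estimate of spread and the GC trends. From only the 6 libraries 5 genes passed adjustment, against 10 in the fit over all 12. All 4 groups are the same cell line and carry the same culture and UV crosslinking text on their labels, which does not say separately whether unlabelled cells were irradiated. The treatment text on the labels gives the CEP dose in mM where the series design gives µM, and the latter is printed here. Nothing on the labels says that replicates were separate cultures, so the p-values measure only the spread between these libraries.

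AHL-Pu-1 carries an electrophile that reacts with cysteine side chains and an alkyne by which bound proteins can be pulled out, and it is used to find protein surfaces that contact RNA. An exposure of 1 h is short against the lifetime of most mRNAs, so a transcript can move far in that time only when it is made or destroyed quickly. Immediate early genes such as FOS are transcribed within minutes of a signal from kinases such as ERK and their mRNAs are destroyed as fast, often through AU-rich elements in the 3′ untranslated region. Messages of metabolic enzymes and ribosomal proteins are known for slow turnover and change little over such a span.

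The labelled cell type was checked against its markers. The summed level of 7 genes that mark HEK293T cells (VIM, KRT8, KRT18, NEFM, NEFL, PAX2 and LIN28B) was 807 to 838 CPM (counts scaled by library size) in DMSO libraries and 813 to 850 in CEP libraries, and 0 of the 7 were at 0. Markers of blood cells summed to 5.98 to 6.31 CPM in DMSO and 2.30 to 5.43 in CEP, with CD3E and HBB at 0. Those of fibroblasts summed to 49.1 to 51.1 and 41.6 to 44.7 CPM, with COL1A2 at 0, and those of melanoma cells, the other line of the study, to 8.96 to 11.5 and 9.85 to 12.5 CPM, with TYR at 0. Between 17104731 and 24644734 fragments were counted on genes per library, and CEP replicate 2 had both the lowest total and the fewest genes with a count, 22230 against 24546 to 24954 in the other 5 libraries.

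The CEP libraries differed from the DMSO libraries in how their counts followed the base composition of genes. A smooth trend on GC content was fitted in each library to the deviation of its log2 CPM from the gene's mean. Read from genes of 38.2% GC (the 5th percentile) to genes of 64.0% GC (the 95th percentile), it rose by 0.30, 0.294 and 0.288 in the DMSO libraries. In the CEP libraries the same difference was 0.114, -0.466 and -0.311. The DMSO libraries lay within 0.02 of each other and all 3 CEP libraries lay below them, with replicate 1 nearest. Libraries that had 4SU without CEP also differed among themselves, at 0.323, -0.0269 and 0.0570, so the trend also moved without CEP. Because it differs between the groups compared, a response of the cells that follows GC content and a property of the libraries cannot be told apart, and each result below is given as counted and with this trend removed from each library. A trend on gene length also differed between the groups. From 649 bases (5th percentile) to 12493 bases (95th), it was -0.0774, -0.0762 and -0.0685 in DMSO and 0.0471, 0.324 and 0.0657 in CEP libraries. Median log2 fold changes ran from -0.14 in the shortest of 5 bins by length to 0.08 in the longest. With the GC trend removed they ran from -0.09 to 0.01. Class values below are not given with the length trend removed.

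**Figure D1:**
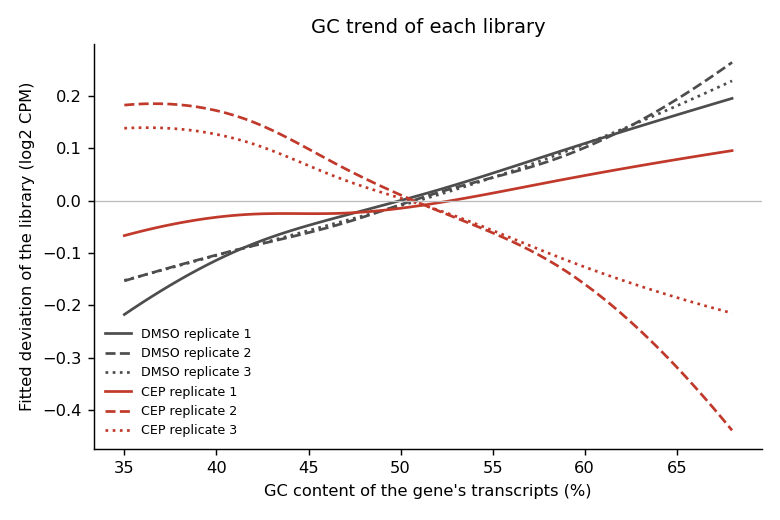
Fitted deviation of each library (log2 CPM, vertical axis) against the GC content of a gene's transcripts (%, horizontal axis), with DMSO libraries in grey, CEP libraries in red, and 1 line style per replicate number. The 3 DMSO curves rise together, CEP replicate 1 rises less, and CEP replicates 2 and 3 fall from low to high GC.

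As counted, genes of low GC content were higher with CEP and genes of high GC content lower. The median log2 fold change went from 0.19 in the lowest of 5 bins of equal gene number by GC content through 0.11, 0.01 and -0.11 to -0.26 in the highest. With the GC trend removed, the 5 medians lay between -0.02 and -0.00, and the size of a typical (median) log2 difference, whatever its sign, was 0.106 in place of 0.185. At an unadjusted p under 0.05 in edgeR's quasi-likelihood test, 1735 genes were higher (9.79% of 17729 tested) and 1554 lower (8.77%) as counted. With the trend removed, 496 of 17718 genes were higher (2.80%) and 824 lower (4.65%). These shares are the background for the counts of nominal differences within lists and classes below. All 3 CEP libraries lay above all 3 DMSO libraries in 13.5% of genes as counted and in 5.27% with the trend removed, and below them in 10.1% and 6.53%.

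In the fit over all 12 libraries, 10 genes passed adjustment over the whole table, a number that moved widely with the settings. It was 1214 without CEP replicate 1, 4 without DMSO replicate 2, 780 with a replicate block and 197 with DESeq2. At an adjusted p of 0.05 as counted, 3 genes rose with CEP (0.0169%) and 7 fell (0.0395%). They were FOS, DUSP5 and SMIM11A among the genes that rose, and MT-ND2, MT-ND1, MT-RNR2, MT-TC, TUBB4B, TUBB and TUBB2A among those that fell. With the GC trend removed, 3 genes rose (0.0169%) and 15 fell (0.0847%), and all 10 genes of the first count were among these 18. The 8 that were added were the mRNAs of TXNIP, TUBA1C, MOCS3, SOX4, MT-ND5 and MT-ND6, the microRNA host transcript MIR17HG, and MTND2P28, a nuclear copy of MT-ND2. Of the 8, MOCS3, SOX4, MIR17HG and MTND2P28 lie outside the rule by which genes were named and are given because they passed.

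**Figure D2:**
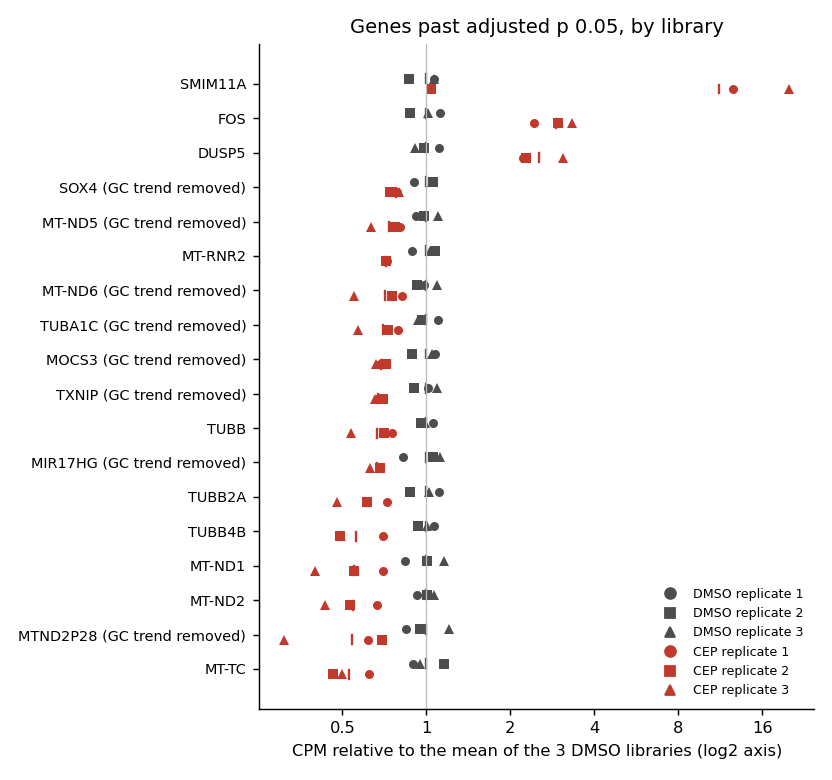
CPM of each gene past an adjusted p of 0.05, relative to the mean of the 3 DMSO libraries (horizontal log2 axis), for each DMSO library (grey) and CEP library (red), with vertical ticks at group means. The groups are apart for every gene shown except SMIM11A, where CEP replicate 2 lies at the DMSO level.

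FOS, a subunit of the AP-1 transcription factor and the textbook immediate early gene, was the clearest rise. Its level was 4.71, 3.69 and 4.27 CPM in DMSO libraries and 10.3, 12.5 and 14.04 CPM in CEP libraries. The lowest CEP library was more than double the highest DMSO library. The log2 fold change was 1.54 (SE 0.19, adjusted p = 0.00147) as counted and 1.69 (SE 0.20, adjusted p = 0.000111) with the GC trend removed. The gene (ENSG00000170345) lies on chromosome 14 from 75278774 to 75282230 on the plus strand of GRCh38.

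The promoter of FOS and an AU-rich stretch of its 3′ untranslated region are shown because the mRNA is known for fast induction from the first and fast decay through the second. The promoter (RefSeq, GRCh38.p14, chr14:75278578-75278877, plus strand, 250 bases before to 50 after the start site) has in capitals the core TGACG of the cAMP response element, 64 bases before the start, and the TATA box TATAAA, 33 bases before it. Both strands were searched, and of 35116 promoter windows of this length 24.6% held TGACG and 11.5% held TATAAA.
FOS promoter: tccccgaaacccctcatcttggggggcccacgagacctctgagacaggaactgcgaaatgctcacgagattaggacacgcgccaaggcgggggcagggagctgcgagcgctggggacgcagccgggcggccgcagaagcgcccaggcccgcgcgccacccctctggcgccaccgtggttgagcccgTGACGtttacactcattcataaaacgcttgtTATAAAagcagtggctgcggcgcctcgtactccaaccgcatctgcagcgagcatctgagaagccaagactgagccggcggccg
Of the named genes searched for the AU-rich element TATTTAT, DUSP5, TXNIP, ADM and EGR1 held 0 copies and are not shown. Below are 30-base windows from 3′ untranslated regions of GENCODE 29 transcripts (GRCh38), read 5′ to 3′ on the strand of the gene, with the AU-rich element TATTTAT in capitals.
FOS (chr14:75282060-75282089, plus strand): tgtttttaattTATTTATtaagatggattc
ZFP36L1 (chr14:68788335-68788364, minus strand): ttatcaaaacgTATTTATtgccaaactatg
CYR61 (chr1:85583559-85583588, plus strand): actgaatgtttTATTTATcaaaatgtagct
KLF6 (chr10:3778340-3778369, minus strand): tatgtttctctTATTTATgccttgaggact
JUN (chr1:58780818-58780847, minus strand): ttgcttatgaaTATTTATaacagcattctt

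DUSP5, a nuclear phosphatase that is induced by ERK signalling and dephosphorylates ERK, also rose. It was at 4.36, 3.84 and 3.57 CPM in DMSO libraries and 8.73, 8.95 and 12.1 CPM in CEP libraries, again without overlap. The log2 fold change was 1.34 (SE 0.17, adjusted p = 0.00147) and 1.44 with the GC trend removed (SE 0.17, adjusted p = 0.000137). The gene (ENSG00000138166) lies on chromosome 10 from 110497838 to 110511544 on the plus strand. The 3′ untranslated region of its longest coding transcript holds 0 copies of TATTTAT. No other gene of the ERK feedback list, of which 17 of 18 genes were tested, passed adjustment. Besides DUSP5, none was nominally higher as counted and 1 was lower, and the list's median was 0.08, or 0.07 with the GC trend removed, against -0.00 and -0.01 over all genes.

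Other immediate early genes moved in both directions and none besides FOS passed adjustment. Of 29 listed genes, FOS among them, 28 were tested, and the counts and medians that follow include FOS. At an unadjusted p under 0.05, 6 were higher and 4 lower as counted, and 8 were higher and 3 lower with the GC trend removed, shares to be read against the background above. The median log2 fold change was 0.04 as counted and 0.14 with the trend removed. In single libraries, the median difference from the DMSO mean with the trend removed was 0.12, 0.02 and 0.26 for CEP replicates 1 to 3, against -0.02 to 0.05 in DMSO libraries, so CEP replicate 2 lay within the DMSO range.

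Among the higher members was CYR61, a secreted matrix protein and target of the YAP coactivator. It was at 11.4, 14.6 and 14.02 CPM in DMSO and at 20.7, 18.1 and 18.6 CPM in CEP, with a log2 fold change of 0.52 (SE 0.13, adjusted p = 0.173). KLF6, a zinc finger factor of the KLF family, was at 37.5, 34.5 and 38.8 CPM against 46.4, 48.3 and 49.2, a log2 difference of 0.38 (SE 0.10, adjusted p = 0.173). EGR1, a zinc finger factor induced with FOS, was at 5.37, 6.21 and 6.55 CPM against 6.60, 8.66 and 12.5, a log2 difference of 0.62 (SE 0.23, adjusted p = 0.200). In these 3 genes the groups did not overlap, and the spread of EGR1 came from CEP replicate 3. ZFP36L1, a protein that binds AU-rich elements and recruits decay enzymes, was listed as a short-lived regulator and was at 22.7, 23.6 and 26.5 CPM against 32.7, 36.3 and 28.9. Its log2 difference of 0.43 had an adjusted p of 0.173, and with the GC trend removed the values were 0.50 and 0.0599.

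JUN, the partner of FOS in AP-1, lay on the other side. It was at 378, 414 and 479 CPM in DMSO libraries and at 346, 298 and 326 CPM in CEP libraries, without overlap, with a log2 fold change of -0.39 (SE 0.11, adjusted p = 0.173) and of -0.28 with the GC trend removed (adjusted p = 0.406). MYC, a transcription factor of cell growth with a short-lived mRNA, was at 253, 262 and 274 CPM against 242, 217 and 207, a log2 difference of -0.24 (SE 0.08, adjusted p = 0.187) that was -0.13 with the trend removed. JUND, whose transcripts are 69.7% GC, changed side: its log2 difference was -0.38 as counted and 0.09 with the trend removed, with adjusted p of 0.196 and 0.869. The pair FOS and JUN therefore stood on opposite sides as counted and with the trend removed, and only that of FOS passed.

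Of the tubulin mRNAs, 3 fell as counted and 4 with the GC trend removed. Alpha- and beta-tubulin form the dimers of microtubules, and their mRNAs are known for a decay that starts on the ribosome when free dimers are abundant and that reads the first residues of the new chain. Of 17 listed genes 14 were tested. None was nominally higher and 9 were nominally lower as counted, and 7 were lower with the GC trend removed. The median log2 fold change was -0.51 as counted and -0.36 with the trend removed, and the single CEP libraries had medians of -0.26, -0.46 and -0.75 from the DMSO mean (-0.21, -0.38 and -0.59 with the trend removed), while DMSO libraries lay between -0.06 and 0.07 with the trend removed. All 3 CEP libraries lay below all 3 DMSO libraries in 8 of the 10 tubulin genes whose mean reached 1 CPM, and in 6 of these 10 with the trend removed, against 10.7% and 6.50% of all genes at that level.

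TUBB4B, a beta-tubulin of cilia and dividing cells, was at 706, 618.0 and 667 CPM in DMSO libraries and at 464, 326 and 327 in CEP libraries. Its log2 fold change was -0.83 (SE 0.11, adjusted p = 0.00147) as counted and -0.67 (SE 0.07, adjusted p = 8.05e-05) with the trend removed. TUBB, the most abundant beta-tubulin message here by RPKM (440 in DMSO and 293 in CEP libraries), was at 1564, 1412 and 1462 CPM against 1118, 1042 and 794, a log2 fold change of -0.59 (SE 0.09, adjusted p = 0.0147). TUBB2A was at 48.9, 38.7 and 45.2 CPM against 31.9, 27.1 and 21.2, a log2 fold change of -0.73 (SE 0.13, adjusted p = 0.0462). TUBA1C, an alpha-tubulin, was at 340, 297 and 289 CPM against 245, 225 and 175, with a log2 fold change of -0.52 (adjusted p = 0.101) as counted and of -0.50 (adjusted p = 0.0180) with the trend removed. In each of these 4 genes the highest CEP library was below the lowest DMSO library, and CEP replicate 1 was the highest of the CEP libraries. As counted, TUBB lost its call without any 1 of the DMSO libraries (adjusted p = 0.0637 to 0.167), and TUBB2A without any 1 of the 6 except CEP replicate 1 (adjusted p = 0.0775 to 0.313).

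TUBB6 and TUBB4A showed the same order of groups without passing adjustment, with log2 differences of -0.54 (adjusted p = 0.146) and -0.51 (adjusted p = 0.173). Between the tubulin copies, 58.0% of the 30-base words of TUBB2A transcripts also occur in TUBB2B and 17.1% of those of TUBA1C in TUBA1B, so their reads may be divided between copies, whereas TUBB and TUBB4B share under 1% of such words (0.355% of those of TUBB). Of 8 CCT subunits of the chaperonin that folds tubulin, 1 was nominally higher and none lower as counted, with medians of 0.07 and, with the trend removed, -0.03. Of 40 kinesin motors, which walk on microtubules, 8 were nominally higher and 2 lower as counted and 1 and 0 with the GC trend removed, with medians of 0.08 and 0.03.

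The first 30 coding bases of tubulin mRNAs are shown because the known decay signal is read there (GENCODE 29, GRCh38, strand of the gene, first 4 codons in capitals). The first 6 genes are those named above, and TUBA1B and TUBA1A are alpha-tubulins whose log2 differences were -0.41 and -0.22 with adjusted p of 0.194 and more. In the alpha-tubulins shown the stretch spans a splice junction.
TUBB4B (chr9:137241361-137241390, plus strand): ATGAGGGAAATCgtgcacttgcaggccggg
TUBB (chr6:30720507-30720536, plus strand): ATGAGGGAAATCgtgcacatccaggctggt
TUBB2A (chr6:3157434-3157463, minus strand): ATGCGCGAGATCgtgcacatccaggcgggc
TUBB6 (chr18:12308293-12308322, plus strand): ATGAGGGAGATCgtgcacatccaggcgggc
TUBB4A (chr19:6502183-6502212, minus strand): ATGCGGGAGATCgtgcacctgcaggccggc
TUBA1C (chr12:49265182-49269491, plus strand): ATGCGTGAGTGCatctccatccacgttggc
TUBA1B (chr12:49129696-49131300, minus strand): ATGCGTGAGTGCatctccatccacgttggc
TUBA1A (chr12:49186807-49188979, minus strand): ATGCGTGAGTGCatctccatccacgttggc
TUBA1C, TUBA1B and TUBA1A are identical over these bases, while their log2 fold changes ran from -0.52 to -0.22. Whether the decay signal took part in the fall was not tested.

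The promoters of TUBB4B and TUBB2A are shown as the windows of a pair of beta-tubulin genes that fell together (RefSeq, GRCh38.p14). In TUBB4B (chr9:137241037-137241336, plus strand) the capitals mark 3 CCAAT boxes, and 34.6% of the 35116 windows held at least 1. In TUBB2A (chr6:3157495-3157794, minus strand) they mark a full cAMP response element TGACGTCA, present in 1.85% of windows, and a TATA box. By the exact letters searched, the TUBB4B window holds neither TGACGTCA nor TATAAA, and the TUBB2A window holds no CCAAT. Variants of these letters were not searched for, and the TUBB4B window holds the similar stretch tatataag.
TUBB4B promoter: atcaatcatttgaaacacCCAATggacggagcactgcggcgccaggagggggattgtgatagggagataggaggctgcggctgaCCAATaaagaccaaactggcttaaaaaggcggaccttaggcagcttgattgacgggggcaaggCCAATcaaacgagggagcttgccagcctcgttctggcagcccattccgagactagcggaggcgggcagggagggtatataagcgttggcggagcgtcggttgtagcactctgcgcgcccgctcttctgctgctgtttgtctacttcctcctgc
TUBB2A promoter: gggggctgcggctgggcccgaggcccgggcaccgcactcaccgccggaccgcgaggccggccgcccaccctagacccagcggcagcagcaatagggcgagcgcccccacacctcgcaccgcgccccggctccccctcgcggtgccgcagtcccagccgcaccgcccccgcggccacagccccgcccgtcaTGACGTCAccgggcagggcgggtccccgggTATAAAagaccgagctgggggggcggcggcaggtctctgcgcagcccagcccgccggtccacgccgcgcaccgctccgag

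Of the 24 mitochondrial genes tested, 4 fell as counted and 6 with the GC trend removed. They are transcribed from each strand as long precursors that are cut at the tRNAs. The 24 comprise 13 mRNAs, 9 tRNAs and 2 rRNAs, and most of the mRNAs encode subunits of the respiratory chain. The share of all counts on mitochondrial genes was 1.27%, 1.58% and 1.65% in DMSO libraries and 1.26%, 1.20% and 0.967% in CEP libraries. Of the 24 genes, 16 were nominally lower and 1 higher as counted, and 17 and 0 with the GC trend removed. All 18 whose mean reached 10 CPM had a negative log2 fold change, and in 9 of these 18 the CEP libraries lay below the DMSO libraries without overlap, against 11.2% of all genes at that level.

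MT-ND2, a subunit of complex I at positions 4470 to 5511 of the plus strand, was at 928, 1006 and 1070 CPM in DMSO libraries and at 667, 533 and 435 in CEP libraries. Its log2 fold change was -0.88 (SE 0.11, adjusted p = 0.00147) and -1.01 with the trend removed (SE 0.12, adjusted p = 9.72e-05). Its neighbour MT-ND1, from 3307 to 4262, was at 546, 654 and 754 CPM against 454, 357 and 260, a log2 fold change of -0.87 (SE 0.15, adjusted p = 0.0257). MT-TC, the cysteine tRNA coded on the minus strand from 5761 to 5826, was at 24.5, 31.7 and 25.9 CPM against 17.1, 12.6 and 13.7, a log2 fold change of -0.92 (SE 0.14, adjusted p = 0.00906). The asparagine tRNA MT-TN beside it, from 5657 to 5729, had a log2 difference of -0.71 (SE 0.19, adjusted p = 0.173). Polyadenylated RNA was sequenced, and tRNAs are far shorter than the fragments of such libraries, so these counts may come from uncut precursors as well as from tRNAs.

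Among the calls as counted, that of MT-ND1 held only when the library left out was replicate 1 of either group, with adjusted p of 0.0782 to 0.220 for the 4 other choices, and the same was true of MT-RNR2 (0.115 to 0.357). The call of MT-TC was lost when either CEP replicate 2, CEP replicate 3 or DMSO replicate 2 was absent, with a lowest adjusted p of 0.0528. MT-RNR2, the large ribosomal RNA from 1671 to 3229, was at 1307, 1577 and 1516 CPM against 1057, 1055 and 1052, a log2 fold change of -0.48 (SE 0.09, adjusted p = 0.0462). MT-RNR1, the small ribosomal RNA from 648 to 1601, had a larger difference of -1.02 that did not pass (SE 0.38, adjusted p = 0.196), since DMSO replicate 1 at 356 CPM stood apart from the other DMSO libraries at 1142 and 1140 and within the CEP range of 290 to 597. MT-CO1, a subunit of complex IV from 5904 to 7445, lay at 2838, 3294 and 3458 CPM against 3230, 3402 and 2358, with overlap and a log2 difference of -0.09 (SE 0.12, adjusted p = 0.697). MT-ND5 and MT-ND6, which lie on opposite strands, had log2 fold changes of -0.54 and -0.64 with the GC trend removed (adjusted p = 0.00719 and 0.0301), and of -0.44 and -0.50 as counted (adjusted p = 0.147 and 0.173). The nuclear copy MTND2P28 on chromosome 1 shares 57.9% of its 30-base words with MT-ND2, and its fall of 1.04 on the log2 scale with the trend removed (adjusted p = 0.0162) cannot be separated from that of MT-ND2.

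Respiratory chain subunits coded in the nucleus had a median of -0.11 over 81 genes (-0.12 with the trend removed), and CEP replicate 2 was the lowest library. Its median was -0.39 with the trend removed, against -0.05 and 0.01 in CEP replicates 1 and 3. Cytoplasmic ribosomal proteins showed the same pattern, with -0.32 in CEP replicate 2 against -0.03 and 0.06 over 85 genes, and so did 20 snoRNA host genes, with -0.48 against -0.14 and -0.00. With the trend removed, 15 respiratory (18.5%), 5 ribosomal (5.88%) and 8 snoRNA host genes (40%) were nominally lower, against 4.65% of all genes. In these lists 0, 1 and 0 were higher. In CEP+4SU against 4SU the 3 medians were -0.02, -0.02 and 0.01 with the trend removed. For the 13 mitochondrially coded mRNAs the 3 CEP libraries had medians of -0.17, -0.52 and -0.84 with the trend removed, and DMSO replicate 1, at -0.17, was as low as CEP replicate 1.

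TXNIP, an inhibitor of thioredoxin and brake on glucose uptake with a short-lived mRNA, was at 43.0, 38.3 and 46.4 CPM in DMSO libraries and at 28.3, 29.8 and 27.9 in CEP libraries. The 3 CEP libraries were close together and below all DMSO libraries, and the log2 fold change was -0.57 (SE 0.11, adjusted p = 0.0641) as counted and -0.67 (SE 0.09, adjusted p = 0.000566) with the GC trend removed. MIR17HG, the host transcript of the miR-17 cluster, was at 15.6, 20.0 and 21.2 CPM against 12.9, 12.9 and 11.9, and its log2 fold change was -0.59 (adjusted p = 0.173) as counted and -0.81 (adjusted p = 0.00610) with the trend removed. MOCS3, an enzyme of molybdenum cofactor synthesis and tRNA thiolation, was at 28.9, 23.8 and 28.1 CPM against 18.4, 19.3 and 17.8, with -0.55 (adjusted p = 0.135) and -0.64 (adjusted p = 0.00591). SOX4, a transcription factor of the SOX family, was at 135, 158 and 157 CPM against 118, 112 and 119, with -0.37 (adjusted p = 0.144) and -0.36 (adjusted p = 0.0257). Each of these 4 passed only in the fit with the trend removed, and in each the groups did not overlap.

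SMIM11A, a small membrane protein, had the largest fold change of the 10 and the least even values. It was at 1.45, 1.18 and 1.45 CPM in DMSO libraries and at 17.1, 1.41 and 27.2 in CEP libraries, so CEP replicate 2 lay within the DMSO range. Its log2 fold change was 3.48 (SE 0.61, adjusted p = 0.0407). Its transcripts share 93.2% of 30-base words with SMIM11B, a copy on the same chromosome, which received 1, 95 and 4 counts in DMSO libraries and 0, 1 and 2 in CEP libraries. The 2 genes cannot be told apart well by short reads, and the value is uncertain. In cells with 4SU the log2 difference was 0.07 (SE 0.66).

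Short-lived and stable messages did not move apart as classes. The list of short-lived regulators, unstable mRNAs of transcription factors, feedback inhibitors and decay factors, had 74 of 75 genes tested, of which 12 were nominally higher and 13 lower as counted and 16 and 10 with the GC trend removed. The list of stable housekeeping mRNAs had 54 of 55 genes tested, with 1 nominally higher and 4 lower as counted and 0 and 4 with the trend removed. The medians were -0.04 and -0.04 as counted and -0.01 and -0.04 with the trend removed, so the difference of medians was -0.0027 and 0.0303. Computed in each library, short-lived minus stable was 0.00478 ± 0.0661 (SD, n = 3) in DMSO and -0.0293 ± 0.0855 (SD, n = 3) in CEP libraries as counted, and 0.00437 ± 0.0639 and 0.0502 ± 0.00836 (SD, n = 3 each) with the trend removed. Both differences between groups were smaller than the SD of the DMSO libraries. The lists differed in spread as counted. The middle 50% of the short-lived list ran from -0.26 to 0.18, near the -0.21 to 0.16 of all genes tested. That of the stable list was narrower, from -0.12 to 0.03. In 47 short-lived regulators outside the immediate early, ERK feedback and YAP-TEAD lists, 5 were nominally higher and 9 lower as counted, and 6 and 7 with the trend removed, and TXNIP was the 1 that fell, with the trend removed.

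The AU-rich element TATTTAT, counted in the longest coding transcript of each gene, separated messages more as counted than with the GC trend removed. Of 2085 coding genes with at least 2 copies, 574 were nominally higher and 45 lower as counted, with a median of 0.16, while of 8992 with none 602 were higher and 1118 lower, with a median of -0.06. The former have a median GC content of 42.9% and the latter of 52.8%. With the trend removed, 110 were higher and 78 lower in the first class and 213 and 429 in the second, with medians of 0.02 and -0.02. Within single bins of GC content the medians with the trend removed were 0.01 to 0.04 for genes with at least 2 copies and -0.02 to -0.00 for genes with none. In single CEP libraries the first class had medians of 0.03, 0.02 and 0.02 and the second of 0.01, -0.03 and -0.01, and DMSO libraries lay within 0.02 of 0.

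Genes of a single exon were lower as a class, by less with the GC trend removed than as counted. Outside the histones and the mitochondrial genome 243 coding genes with a single annotated exon were tested. As counted, 2 were nominally higher and 71 lower, or 29.2%, against 9.34% of 13687 genes with several exons. With the trend removed, 5 were higher and 56 lower, or 23.2%, against 4.09%. The median log2 fold change was -0.24 as counted and -0.15 with the trend removed, against 0.01 and -0.00 for several exons. The single CEP libraries had medians of -0.08, -0.20 and -0.12 with the trend removed and the DMSO libraries of -0.01, -0.00 and 0.02, without overlap. With 1 library left out, the number nominally lower as counted ran from 47 (without CEP replicate 2) to 82 (without CEP replicate 1), in place of 71. It was 50 without DMSO replicate 2 and 51 without CEP replicate 3. By level of expression and with the trend removed, 4.69%, 14.1%, 26.5%, 40.0% and 62.5% of single-exon genes were nominally lower from the lowest to the highest of 5 bins of abundance, against 2.66% to 4.62% of genes with several exons. These bins held 64, 66, 49, 40 and 24 single-exon genes. Their medians were -0.08, -0.14, -0.13, -0.14 and -0.19 with the GC trend removed. As counted they were -0.22, -0.23, -0.24, -0.18 and -0.26, so the shares rose more steeply than the medians. The length trend was not removed for this class.

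**Figure D3:**
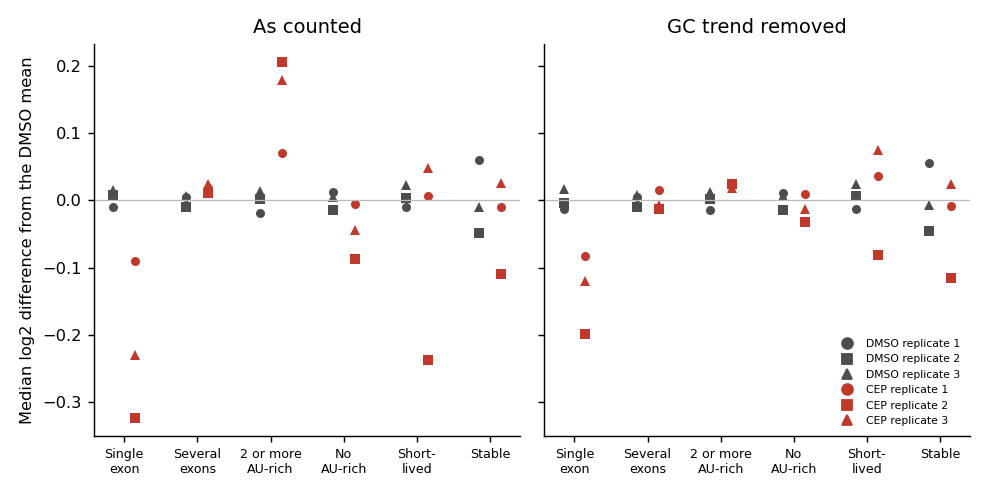
Median log2 difference from the DMSO mean (vertical axis) of 6 gene classes in each DMSO (grey) and CEP (red) library, as counted on the left and with the GC trend removed on the right; AU-rich means copies of the AU-rich element in the 3′ untranslated region. Single-exon genes are below 0 in all 3 CEP libraries on both sides, while the gap between the AU-rich classes is narrower on the right and the short-lived and stable lists overlap between groups.

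Single-exon genes at the front of this class included regulators and enzymes of many kinds, and apart from MOCS3 and SOX4 none passed adjustment. They were picked after their values were seen. EXOSC6, a subunit of the RNA exosome, was at 106, 102 and 110 CPM in DMSO and 93.4, 81.4 and 85.1 in CEP libraries, with a log2 difference of -0.37 with the trend removed (adjusted p = 0.0686). HNRNPA0, an RNA-binding protein of AU-rich elements, was at 309, 315 and 349 CPM against 298, 249 and 271, with -0.42 (adjusted p = 0.116). GAS1, a membrane protein that takes part in Hedgehog signalling, had -0.40 (adjusted p = 0.139), DDX28, a helicase of mitochondrial ribosome assembly, -0.31 (adjusted p = 0.345), and RHOB, a small GTPase with a short-lived mRNA, -0.19 (adjusted p = 0.473). In all 5 the CEP libraries lay below the DMSO libraries without overlap. JUN is also a single-exon gene. Clustered histone genes were not all of a single annotated exon: with them, the nuclear single-exon class held 264 genes in place of 243. Among the 32 histone genes tested, 6 were nominally lower and 0 higher as counted, with a median of -0.28, or -0.25 with the trend removed. Their mRNAs mostly end without a poly(A) tail, and poly(A)-selected libraries measure them poorly.

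Genes that headed the ranking of nominal rises after FOS and DUSP5 were of low GC content. The next 8 without overlap between groups were ZNF280C, WDR47, ARID4A, FOXN2, CREB1, STAM2, TMEM39A and E2F7, all with transcripts of 37.1% to 44.6% GC, below the median of 49.3% of all genes tested. Their log2 differences were 0.36 to 0.52 as counted, with adjusted p of 0.140 to 0.173, and 0.15 to 0.30 with the trend removed, with adjusted p of 0.263 to 0.703. CREB1, the transcription factor that binds the cAMP response element, gives an example: it was at 45.6, 43.1 and 46.0 CPM in DMSO libraries and 56.2, 58.2 and 58.1 in CEP libraries, and its log2 difference went from 0.36 to 0.15. On the lower side FKBPL, a protein of the FK506-binding family, was at 18.0, 17.4 and 15.4 CPM against 11.8, 9.13 and 10.8, with a log2 difference of -0.68 (adjusted p = 0.101) as counted and of -0.58 (adjusted p = 0.0914) with the trend removed.

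Among pathways that answer to electrophiles and protein damage, no NRF2 target or heat shock gene passed adjustment at 1 h. Of 24 NRF2 target genes, the antioxidant programme that cysteine-reactive compounds are known to switch on, 1 was nominally higher and 2 lower as counted and 0 and 1 with the GC trend removed, with medians of -0.05 and 0.00. HMOX1, a heme oxygenase and one of the most inducible of them, was at 93.6, 90.8 and 90.2 CPM in DMSO and 86.0, 71.0 and 85.0 in CEP libraries, with a log2 difference of -0.18 (SE 0.10) as counted and 0.01 (SE 0.07) with the trend removed. FTH1, the ferritin heavy chain, was at 286, 289 and 284 CPM against 260, 116 and 234, a spread set by CEP replicate 2. Of 19 heat shock genes 4 were nominally higher and 2 lower as counted and 2 and 0 with the trend removed, with medians of 0.04 and -0.00. HSPA8, the constitutive HSP70, was at 2076, 1792 and 1974 CPM against 2337, 2449 and 2136, a log2 difference of 0.24 (SE 0.07, adjusted p = 0.173). In the separate contrast of CEP+4SU against 4SU, the heat shock list had a median of 0.13, or 0.07 with the trend removed, and its library medians were 0.09, 0.14 and 0.09 against -0.06, 0.01 and -0.01, without overlap.

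In other stress programmes no gene passed adjustment either. Among 26 genes of the ATF4 integrated stress response, 2 were nominally higher and 3 lower as counted, with medians of 0.01 and 0.03, and CBS, an enzyme of transsulfuration, was at 103, 55.6 and 70.4 CPM against 47.1, 39.3 and 40.5, a log2 difference of -0.85 (SE 0.21, adjusted p = 0.173) in which DMSO replicate 1 stood high. Among 18 genes of the unfolded protein response, 4 were higher and 1 lower as counted and 0 and 0 with the trend removed. Among 23 p53 targets the counts were 5 and 4 as counted and 4 and 0 with the trend removed, 17.4% of the list against the 2.80% of all genes, with medians of 0.11 and 0.04, and MDM2, the ligase that limits p53, had a log2 difference of 0.31 that became 0.13 (adjusted p = 0.174 and 0.640). None of 13 NF-κB targets and none of 5 metallothionein and zinc response genes was nominally different in either fit, and their medians were -0.20 and 0.14 as counted and -0.10 and -0.02 with the trend removed. Hypoxia, interferon and cholesterol synthesis genes had medians of -0.03, 0.06 and 0.03 as counted and of -0.09, 0.07 and -0.01 with the trend removed, with 13 of 15 hypoxia genes then below 0. Among the hypoxia genes ADM, a vasodilator peptide, was at 11.1, 11.3 and 10.3 CPM against 13.3, 15.02 and 18.1, a log2 difference of 0.51 (adjusted p = 0.173) and of 0.67 (adjusted p = 0.0686) with the trend removed.

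**Figure D4:**
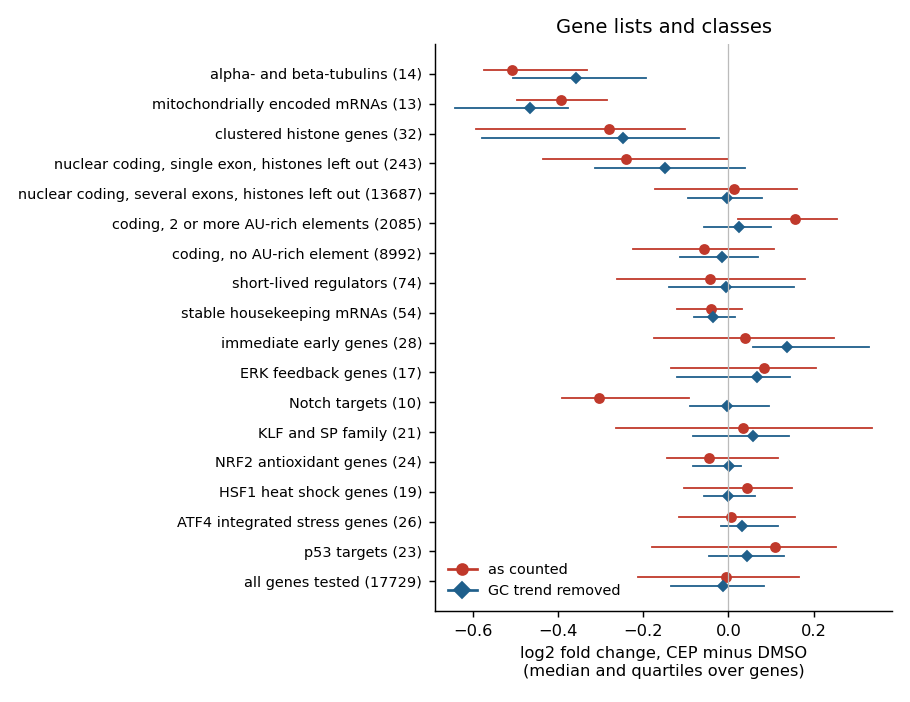
Median and quartiles over genes of the log2 fold change, CEP minus DMSO (horizontal axis), for 17 lists and classes and for all genes, with the number of genes tested in parentheses, as counted (red circles) and with the GC trend removed (blue diamonds). Tubulins, mitochondrially coded mRNAs, histones and single-exon genes have medians below 0 in both, and the Notch and AU-rich medians move to near 0 when the trend is removed.

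Signalling lists changed unequally when the trend was removed. All 4 nominal differences among 10 Notch targets were lower, with a median of -0.31, and with the trend removed the median was -0.00 and 2 were nominally lower. HES5, a single repressor among them, was at 8.84, 10.6 and 12.8 CPM against 6.97, 5.36 and 4.79, with log2 differences of -0.91 (adjusted p = 0.144) and -0.57 (adjusted p = 0.359). Of 11 TGF-β and BMP targets 4 were lower and none higher as counted, with a median of -0.27. With the trend removed 4 were still lower (36.4%) and 1 higher, and the median was -0.15. Of 22 YAP-TEAD targets 2 were higher and 3 lower, with medians of -0.07 and 0.02, and CYR61 was the member with the smallest p. Of 21 KLF and SP factors 6 were higher and 1 lower as counted and 3 and 0 with the trend removed, with medians of 0.03 and 0.06. Of 18 SR splicing factors 1 was higher and 2 lower as counted and 1 and 6 with the trend removed, with medians of 0.05 and -0.11. Over 10 further lists with 728 tested genes (cytoskeletal SRF targets, glycolysis, transcription kinases, G2/M, replication, mitochondrial ribosomal proteins, proteasome, ZNF genes, tRNA synthetases and helicases), the list medians were -0.12 to 0.12 as counted and -0.05 to 0.03 with the trend removed, and no gene passed adjustment.

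Antisense transcripts and lincRNAs had medians below 0, with shares of nominal falls below or near the share over all genes. Of 1094 antisense transcripts 15 were nominally higher and 60 lower (5.48%) as counted and 15 and 53 (4.84%) with the trend removed, with a median of -0.16 in both. Of 850 lincRNAs 19 were higher and 35 lower (4.12%) as counted and 12 and 41 (4.82%) with the trend removed, with medians of -0.13 and -0.15. The shares of lower genes were below or near the background of 8.77% and 4.65%. Other noncoding classes lay elsewhere, with medians as counted of 0.04 for snoRNAs and 0.02 for processed pseudogenes. Antisense and lincRNA genes are weakly expressed. In the lowest of the 5 bins of abundance, lincRNA and antisense genes had a median of -0.20 and coding genes of -0.07 with the trend removed, and in the bin above it -0.12 and -0.03. At like abundance and with the trend removed, more of them than of coding genes were nominally lower. The shares were 3.31% against 2.80% in the lowest bin, 6.37% against 3.96% in the next and 10.8% against 4.98% in the middle bin. As counted, the lowest bin went the other way, at 3.06% against 4.16%. Whether the counting used strand is not given in the sources used here, so reads of an antisense transcript and of its partner may not be separated. Protein-coding genes, 13975 of those tested, had medians of 0.01 and -0.01.

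The 3 CEP+4SU and 3 4SU libraries show the same contrast without sharing a library with the one above. Both contrasts come from the fit over all 12 libraries, so their p-values share an estimate of the spread. There, 2 genes rose (0.0113%) and 6 fell (0.0338%) at an adjusted p of 0.05. All 10 genes called for CEP against DMSO had the same sign in cells with 4SU, 9 of them with an unadjusted p under 0.05. Of the 18 called with the GC trend removed all had the same sign with it removed. In 16 of these the unadjusted p was under 0.05, taken from the fit as counted. FOS had a log2 fold change of 1.54 (SE 0.20, adjusted p = 0.00432), MT-TC of -1.04 (SE 0.14, adjusted p = 0.00432), MT-ND2 of -0.61 (adjusted p = 0.0380), TUBB4B of -0.62 (adjusted p = 0.0380), TUBB2A of -0.77 (adjusted p = 0.0380) and TXNIP of -0.62 (adjusted p = 0.0380). CYR61 passed only there, with 0.78 (adjusted p = 0.0380). DUSP5 had 0.83 (SE 0.18, adjusted p = 0.208), and JUN -0.57 (SE 0.11, adjusted p = 0.0881). These values are as counted. With the GC trend removed, DUSP5 passed at 0.89 (adjusted p = 0.0468) and TUBB at -0.45 (adjusted p = 0.0245). MT-ND1 and MT-RNR2 did not pass with it removed either (adjusted p = 0.458 and 0.0633).

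**Figure D5:**
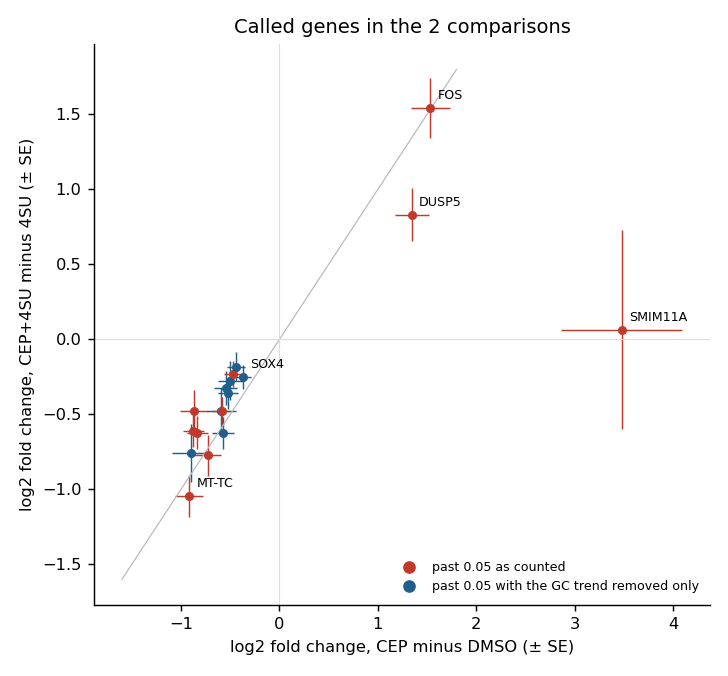
Log2 fold change of CEP+4SU minus 4SU (vertical axis) against that of CEP minus DMSO (horizontal axis), both as counted, with SE bars, for the 10 genes past an adjusted p of 0.05 as counted (red) and the 8 that passed only with the GC trend removed (blue); the grey diagonal marks equal values. All 18 genes share the sign, and SMIM11A, at 3.48 against 0.07, is the farthest from the diagonal.

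Classes can be set side by side in the same way. The tubulin median was -0.43 in cells with 4SU and -0.51 without, or -0.34 and -0.36 with the GC trend removed, and that of single-exon genes was -0.14 and -0.24, or -0.09 and -0.15 with the trend removed. Mitochondrially coded mRNAs had a median of -0.05 with 4SU and -0.39 without, or -0.15 and -0.47 with the trend removed, and MT-ND1 and MT-ND2 were at -0.48 and -0.61. Over 17729 genes the log2 fold changes of the 2 contrasts had a Pearson correlation of 0.196, and of 0.0825 with the trend removed. Over genes whose mean reached 5 CPM it was 0.590 (11740 genes) and 0.248 (11738 genes). These are descriptions across genes, which are not independent replicates, and both contrasts hold a CEP group whose replicate 2 had the steepest fall with GC content. The difference between the contrasts was tested as an interaction in the same model: 0 genes passed, the smallest adjusted p was 1.00, DESeq2 also gave 0, and 467 genes of 17729 had an unadjusted p under 0.05.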

How the data were processed

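RNA-Seq of 12 HEK293T libraries was used, in 4 groups of 3 given by the treatment on the labels (DMSO, CEP, 4SU, CEP+4SU). Per the labels and methods, the authors selected polyadenylated RNA, removed adapter and low-quality reads, aligned the rest to GRCh38 with HISAT2 2.0.5 and counted fragments on genes with featureCounts 1.5.0-p3. The values used are these counts as deposited, whole numbers per gene without normalization, for 58735 genes; the FPKM tables were not used.

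R 4.3.3 with edgeR 4.0.16 was used. Genes were kept by filterByExpr (minimum count 10, minimum total 15), scaled by TMM and fitted in 1 quasi-likelihood model over the 4 groups (prior count 0.125 for fold changes, 2 for log2 CPM), with Benjamini-Hochberg adjustment over all genes at 0.05. CPM values use TMM library sizes. The GC trend of a library is a natural spline (5 degrees of freedom) of its log2 CPM deviation from the gene's mean over the 12 libraries, on the GC content of GENCODE 29 transcripts weighted by length. It was removed as an offset in the same model, for 17718 genes. This takes out any group difference that follows GC content, whatever its source. Class medians per library use log2(CPM + 0.1). Sequences came from RefSeq and GENCODE 29. The scripts were tested on simulated counts with known changes.

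Comparisons, 44 gene lists and the naming rule were all chosen with earlier results of these data known. Named are the genes past the threshold, the 10 with the smallest p in each direction (mean of 1 CPM or more, no overlap of groups with and without the GC trend), and up to 4 per list. A list is described by counts and medians and has no test of its own. 2 listed genes were found under an older symbol. Alternatives were DESeq2 1.42.0, other scalings, filters, thresholds and dispersions, removal of a length trend, only the 6 libraries, a replicate block and each library left out. For tubulin, single-exon and mitochondrial genes, the GC trend and left-out libraries were added after the data were seen. The common biological coefficient of variation was 0.114.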

Additional observations from a re-analysis of the deposited data

How the results depend on the processing

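The count of genes called for CEP against DMSO, 10 as reported, depended on the settings. It was 18 with the GC trend removed, 6 with a trend on gene length removed, 5 from only the 6 libraries, 197 with DESeq2, 6902 with DESeq2 at an adjusted p of 0.5, and 662 without a low-count filter, and it lay between 7 and 11 for the other scalings, the stricter filter, the threshold of 0.1 and robust dispersion. With each library left out in turn it ran from 4 (without DMSO replicate 2) to 1214 (without CEP replicate 1, the library with the GC trend nearest to DMSO), and with the GC trend removed from 8 (without DMSO replicate 3) to 49 (without CEP replicate 1), with 19 without CEP replicate 2. Between DMSO and CEP libraries replicate numbers showed no pairing: the deviations of same-numbered libraries correlated at 0.011, 0.0051 and 0.0062. The groups with 4SU were not part of that check. Across groups, the GC trend was lowest in replicate 2 of CEP, 4SU and CEP+4SU (-0.466, -0.0269 and -0.601) but not of DMSO. A replicate block over all groups gave 780 genes, or 26 together with the GC trend removed. DESeq2 gave FOS and DUSP5 no adjusted p after its filter on low means. In the 23 other alternatives both passed, and in all 24 MT-ND2 and TUBB4B did, while MT-TC passed in 21, TUBB in 20, MT-RNR2 in 17, MT-ND1 in 16, TUBB2A in 13 and SMIM11A in 11. With the length trend removed, the adjusted p was 0.120 for MT-ND1 and TUBB2A and 0.185 for MT-RNR2. The interaction of CEP with 4SU, 0 genes as reported, had 15 without a low-count filter and 0 to 1 with a library left out, with or without the trend; the 1 gene, without CEP replicate 2, was SMIM11A, at -3.96 in the fit as counted. The difference of medians between short-lived and stable mRNAs ran from -0.0511 to 0.0305 with a library left out and from -0.0170 to 0.0709 with the trend removed as well, so its sign was not fixed. The number of nominally lower genes with a library left out was 6 to 8 of tubulins, 47 to 82 of single-exon genes and 11 to 17 of mitochondrial genes. Signs reversed for JUND (0.0901 with the GC trend removed, 0.0886 with the block as well, and 0.0401, 0.112, 0.145, 0.146 and 0.168 in the 5 of 6 fits with a library left out and the trend removed), HMOX1 (0.00674 and 0.00602, and 0.00812, 0.0275, 0.0325 and 0.0511 in 4 of those 6) and MT-CO1 (0.0103 with the length trend removed, and from -0.193 to 0.0524 with a library left out, above 0 without CEP replicate 3). The cause of these changes was not tested.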
